A study of Mus musculus with 8 samples.

Results

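Tsc22d3 encodes a leucine zipper protein that is induced by glucocorticoids in many tissues and binds inflammatory transcription factors. It was examined in embryonic mouse heart ventricles together with 9 other genes of corticoid signalling. The 10 genes were the receptors Nr3c1 and Nr3c2, the steroid enzymes Hsd11b1 and Hsd11b2, and the glucocorticoid-induced genes Tsc22d3, Fkbp5, Per1, Zbtb16, Klf9 and Sgk1. They were picked by symbol from the 53465 genes of the table, and all 10 were found. Tsc22d3 was chosen because its measured level was lower in the libraries labelled Flox, and the question put to the other genes was whether that lower level was part of a wider fall. Its own values are therefore given as a description, with no test.

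By the labels, each library was made from polyA RNA of 1 ventricle at embryonic day 15.5. The 4 libraries labelled WT were wild type, and the 4 labelled Flox came from the genotype Nrg-1flox;Cdh5-CreERT2, in which a tamoxifen-inducible Cre driven from the endothelial Cdh5 promoter recombines a floxed neuregulin gene. Neuregulin is a growth factor that the endocardium sends to cardiomyocytes. Whether the WT embryos carried the Cre or were exposed to tamoxifen, the time of tamoxifen and the sex and litter of the embryos are not given in the sources used here. A female embryo expresses Xist and a male embryo the Y-linked genes, and 7 of the 8 libraries held both above 1 CPM, with Xist at 103.0 to 327.3 CPM and 4 Y-linked genes summing to 42.9 to 121.9 CPM. WT replicate 4 held the Y-linked genes alone, at 171.2 CPM against 0.176 CPM of Xist. RNA of both sexes in a library goes against 1 ventricle per library; how it came about was not tested, and the number of embryos behind each library is not given. The p-values measure the spread between these libraries, which may be pools, and a change confined to endothelial cells is averaged with the RNA of the other cells of the ventricle.

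Libraries held 16761763 to 24144272 expected counts. Levels are given as CPM, the counts of a gene per 1000000 counts of its library after scaling by the trimmed mean of M-values (TMM). Cardiomyocyte markers summed to 43482 to 49626 CPM over the 8 libraries, and 4 hepatocyte markers to at most 1.96 CPM. Nrg1, the targeted gene, was measured at 4.08 to 5.46 CPM in WT and 5.36 to 6.82 CPM in Flox, so that its total was not reduced in the libraries with the Flox label (log2 fold change 0.34 ± 0.120, SE, FDR = 0.311). The position of the floxed exons is not given, so this gene total does not check the deletion. Directions below are those of the libraries as labelled.

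Glucocorticoids enter the cell and bind the glucocorticoid receptor, which waits in the cytoplasm in a complex with Hsp90 and its co-chaperones. The bound receptor moves to the nucleus and binds pairs of inverted half-sites, or acts through other factors, to raise genes such as Tsc22d3, Fkbp5 and Per1. Enzymes of the cell set how much active hormone reaches the receptor, and in the fetal heart the pathway is known for its part in late maturation.

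The promoter windows of the induced genes show where such half-sites lie. RefSeq windows of 250 bases before to 50 bases after a start site (GRCm38.p6) were at hand for 7 of the 10 genes, 15 windows in all. Sgk1 had 6 of these windows and Tsc22d3 had 3, so these genes had more places for a match. Both strands were searched for the half-site TGTTCT, the palindrome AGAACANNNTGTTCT that joins 2 half-sites, and the E-box CACGTG bound by clock factors. The palindrome stood in 1 of the 15 windows and in 3 of the 32851 windows of the table (0.00913%). That window belonged to Sgk1, lay inside the gene at chr10:21993640-21993939 on the plus strand, and carried the palindrome at -189 to -175 from its start site. A looser palindrome, GNACANNNTGTNC, which includes the first, was in the same Sgk1 window only, against 0.475% of all windows. The half-site was in 4 of the 15 windows, 3 of Sgk1 and 1 of Tsc22d3, beside 6233 of the 32851 windows. The Tsc22d3 window with a match, chrX:140600473-140600772 on the minus strand, covered the 5′ end of the annotated gene and held the half-site at -185 to -180. The other Tsc22d3 windows held no half-site. E-boxes were in 3 windows, 1 each of Per1, Fkbp5 and Sgk1, against 7.15% of all windows. The Per1 window was chr11:69098699-69098998 on the plus strand, with the E-box at -166 to -161. These windows of Sgk1, Tsc22d3 and Per1, 1 for each gene, are shown because they hold the palindrome, a half-site and an E-box. Capitals mark the palindrome, half-sites and E-boxes. In Sgk1 the first run of capitals is an E-box that overlaps a half-site.
Sgk1: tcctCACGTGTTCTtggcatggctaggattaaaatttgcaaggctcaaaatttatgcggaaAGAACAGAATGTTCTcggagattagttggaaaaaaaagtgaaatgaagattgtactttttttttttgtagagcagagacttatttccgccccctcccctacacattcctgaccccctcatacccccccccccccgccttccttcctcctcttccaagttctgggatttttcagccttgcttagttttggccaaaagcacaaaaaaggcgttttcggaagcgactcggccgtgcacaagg
Tsc22d3: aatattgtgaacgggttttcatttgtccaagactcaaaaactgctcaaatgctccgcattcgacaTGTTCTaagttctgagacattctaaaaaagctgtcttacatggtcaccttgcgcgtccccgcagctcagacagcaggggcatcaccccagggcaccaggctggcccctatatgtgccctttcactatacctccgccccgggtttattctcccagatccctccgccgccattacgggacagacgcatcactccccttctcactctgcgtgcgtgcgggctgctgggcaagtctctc
Per1: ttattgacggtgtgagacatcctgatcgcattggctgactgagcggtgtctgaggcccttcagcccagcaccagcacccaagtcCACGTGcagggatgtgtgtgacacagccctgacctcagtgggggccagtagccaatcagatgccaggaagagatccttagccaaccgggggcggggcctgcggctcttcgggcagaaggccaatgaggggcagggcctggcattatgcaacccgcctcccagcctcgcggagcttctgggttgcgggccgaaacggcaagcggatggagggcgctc
A match describes these letters only. Of the other motifs searched, the cyclic AMP element TGACGTCA was in none of the 15 windows (1.79% of all), and the forkhead element GTAAACA was in 1 window each of Hsd11b1 and Klf9 (3.65% of all).

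Tsc22d3 (ENSMUSG00000031431, chrX:140539528-140600659, minus strand) gave 120.2, 116.6, 110.9 and 123.0 CPM across the WT libraries, against 95.7, 96.6, 93.4 and 101.6 CPM across the Flox libraries, each in the order of replicate numbers 1 to 4, as for the genes below. Every Flox library was below every WT library. The WT mean was 118 ± 5.21 CPM (SD, n = 4) and the Flox mean 96.9 ± 3.47 CPM (SD, n = 4), so that the Flox mean was 82.3% of the WT mean. The log2 fold change was -0.28 ± 0.0384 (SE). Counts of 1727 to 2801 lay behind these levels. The spread among WT libraries, a coefficient of variation of 4.43%, was larger than the 1.94% that counting alone gives.

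Of the 10 genes, that of the glucocorticoid receptor varied least between libraries of a group. Nr3c1 (ENSMUSG00000024431, chr18:39410545-39519421, minus strand) gave 87.5, 89.9, 85.6 and 86.4 CPM across the WT libraries, against 87.4, 88.1, 83.9 and 84.0 CPM across the Flox libraries. The groups overlapped, and the log2 fold change was -0.02 ± 0.0302 (95% interval -0.09 to 0.04, FDR = 0.851). Its variation in WT, 2.16%, was no larger than the 2.25% expected from counting. In Flox it was 2.58%, against 2.38% from counting.

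Nr3c2 (ENSMUSG00000031618, chr8:76899442-77245012, plus strand) encodes the mineralocorticoid receptor, which also binds glucocorticoids and with high affinity. Levels were 12.1, 11.7, 11.8 and 12.6 CPM across the WT libraries, against 12.5, 12.4, 12.9 and 11.9 CPM across the Flox libraries. The groups overlapped (log2 fold change 0.05 ± 0.0646, 95% interval -0.09 to 0.19, FDR = 0.876). Per kilobase of exon, Nr3c1 was 6.13 ± 0.277 times Nr3c2 in WT and 5.83 ± 0.233 times in Flox (SD, n = 4 each), with ranges that overlapped. Nr3c2 shares 247 exonic bases, 3.82% of its exonic length, with Gm10649 on the other strand, and the strand setting of the counting is not given.

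The enzymes that set local hormone were scarce. Hsd11b1 (ENSMUSG00000016194, chr1:193221634-193264075, minus strand), which regenerates active glucocorticoid, gave 0.879, 0.839, 1.22 and 0.659 CPM across the WT libraries, against 0.303, 0.881, 0.793 and 1.00 CPM across the Flox libraries. These levels rest on 6 to 28 expected counts, and the first Flox library was the lowest of the 8. The log2 fold change was -0.27 ± 0.333 with a 95% interval from -0.99 to 0.45 (FDR = 0.851), wide enough to hold both 0 and the Tsc22d3 estimate. Without Flox replicate 1 the fold change was -0.02, and without Flox replicate 4 it was -0.42. Hsd11b2 (ENSMUSG00000031891, chr8:105518755-105523988, plus strand), which inactivates glucocorticoid, had 2 to 6 expected counts per library and was below the filter for testing. Its levels ran from 0.0869 to 0.220 CPM in WT and from 0.0839 to 0.303 CPM in Flox. A change of either enzyme by the size seen in Tsc22d3 was not detectable at this depth.

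Fkbp5 (ENSMUSG00000024222, chr17:28399094-28517527, minus strand) encodes a co-chaperone of Hsp90 that lowers the receptor's affinity for hormone. It was measured at 39.8, 37.4, 43.8 and 35.2 CPM across the WT libraries, against 40.1, 38.6, 34.98 and 36.20 CPM across the Flox libraries. The WT range covered all but the lowest Flox library, and the log2 fold change was -0.06 ± 0.0652 (95% interval -0.20 to 0.08, FDR = 0.826). Without WT replicate 3, the highest library, it was 0.0034.

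Per1 (ENSMUSG00000020893, chr11:69095217-69109960, plus strand) encodes a repressor of the circadian clock that glucocorticoids induce directly. Its levels were 57.0, 55.1, 60.7 and 59.5 CPM across the WT libraries, against 55.9, 55.0, 59.6 and 59.0 CPM across the Flox libraries. The groups overlapped over nearly their whole range. The log2 fold change was -0.02 ± 0.0405, and the interval from -0.11 to 0.07 was among the narrowest of the induced genes (FDR = 0.927).

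Sgk1 (ENSMUSG00000019970, chr10:21882184-21999903, plus strand) encodes a kinase induced by serum and by both kinds of corticoid, which phosphorylates ion transport regulators and FOXO factors. It was at 23.45, 26.01, 26.16 and 26.05 CPM across the WT libraries, against 25.9, 26.7, 21.8 and 25.5 CPM across the Flox libraries. One library of each group lay below the rest, WT replicate 1 and Flox replicate 3. The log2 fold change was -0.02 ± 0.0648 (95% interval -0.17 to 0.12, FDR = 0.944), and it was 0.037 without Flox replicate 3.

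Zbtb16 (ENSMUSG00000066687, chr9:48654297-48836222, minus strand), which encodes a zinc finger repressor, gave 8.001, 7.462, 10.12 and 8.522 CPM across the WT libraries, against 8.44, 9.23, 7.98 and 7.53 CPM across the Flox libraries. WT replicate 3 was the highest and WT replicate 2 the lowest of the 8 libraries. The log2 fold change was -0.04 ± 0.107 (95% interval -0.27 to 0.20, FDR = 0.952), and without WT replicate 3 it was 0.059.

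Klf9 (ENSMUSG00000033863, chr19:23141226-23168134, plus strand) encodes a zinc finger factor that binds GC-rich promoters. Its levels were 5.64, 5.52, 5.17 and 6.54 CPM across the WT libraries, against 5.31, 6.75, 6.39 and 5.94 CPM across the Flox libraries. The groups overlapped, and the log2 fold change was 0.10 ± 0.112 (95% interval -0.15 to 0.34, FDR = 0.839).

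**Figure D1:**
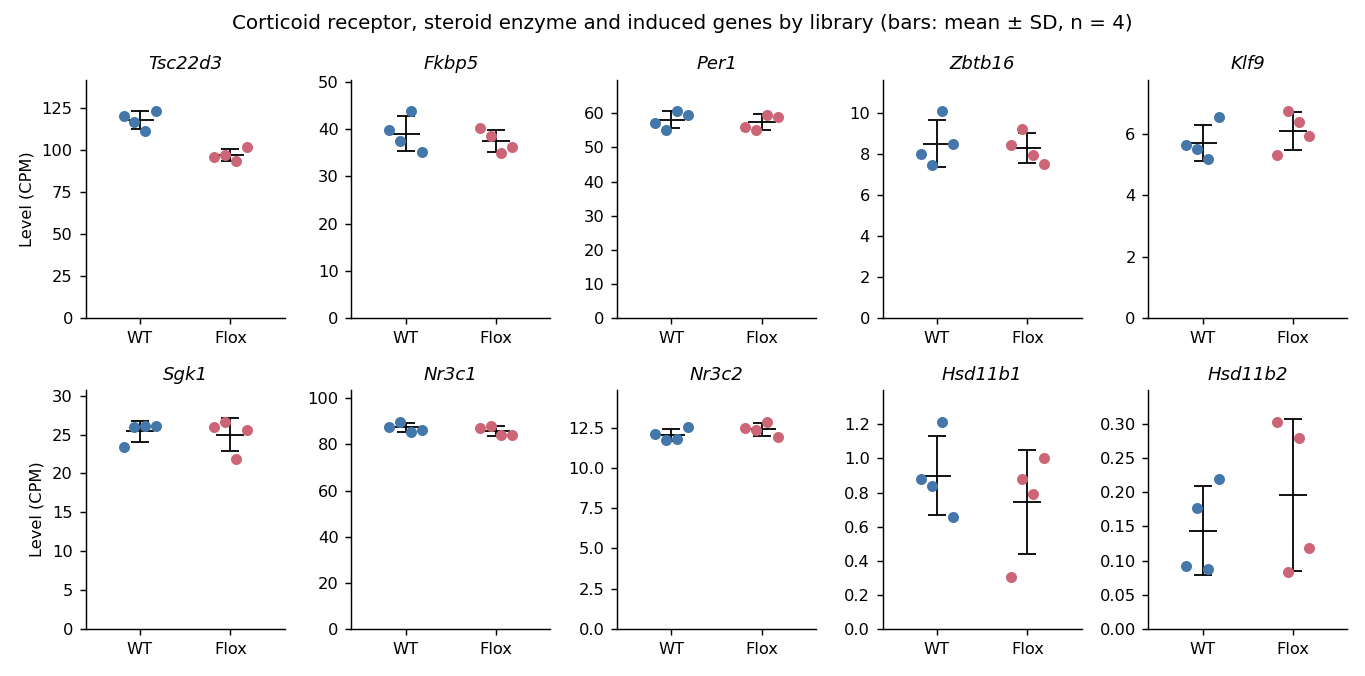
Level in CPM of each of the 10 genes in the 4 WT (blue) and 4 Flox (red) libraries, with bars for the mean and SD of each group and axes that start at 0. Tsc22d3 is the gene whose groups do not overlap, at 110.9 to 123.0 CPM in WT and 93.4 to 101.6 CPM in Flox.

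Across the 8 tested genes other than Tsc22d3, 0 passed an FDR of 0.05 in edgeR's quasi-likelihood test, in either direction. Over all 15388 genes tested, 81 passed (0.526%), of which 33 were lower in Flox (0.214%). None of the 8 had an unadjusted p under 0.05, and none passed in DESeq2, in limma or in the other alternatives tried. The groups overlapped for all 8, and did not overlap for 6.05% of all genes tested. Of the 8, 6 had a lower and 2 a higher mean estimate, and their median log2 fold change was -0.02, beside -0.0012 over all genes tested. That median was 0.0040 without WT replicate 3 and -0.05 without Flox replicate 2. All 8 intervals held 0. The intervals of 7 lay above the Tsc22d3 estimate of -0.28, that of Zbtb16 by a small margin, and the interval of Hsd11b1 held it. That estimate has an SE of 0.0384 and belongs to the gene chosen for its lower level, so it is no fixed mark. The difference between Tsc22d3 and each gene was not tested. Of the induced genes other than Tsc22d3, 4 of 5 had estimates under 0, with a median of -0.02.

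**Figure D2:**
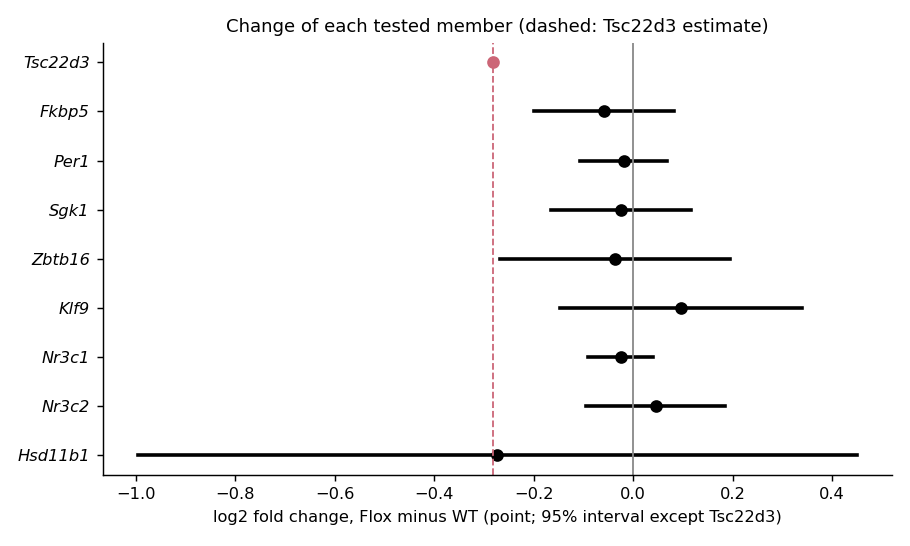
Log2 fold change of Flox against WT (point) with its 95% interval (line) for the 8 tested genes other than Tsc22d3, which is shown as a point alone, with 0 as a solid and the Tsc22d3 estimate of -0.28 as a dashed vertical line. The 8 intervals hold 0, and that of Hsd11b1, from -0.99 to 0.45, also holds the Tsc22d3 estimate.

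Levels of different genes were compared per kilobase of annotated exon, which understates a gene that uses few of its exons. In WT, Tsc22d3 was the highest at 27.1 ± 1.20 CPM per kb (SD, n = 4), followed by Nr3c1 at 11.4 ± 0.245 and Per1 at 10.3 ± 0.447 CPM per kb. Sgk1 stood at 5.18 ± 0.268 and Fkbp5 at 4.12 ± 0.391 CPM per kb. Nr3c2 at 1.86 ± 0.0604, Zbtb16 at 1.61 ± 0.218 and Klf9 at 1.19 ± 0.122 CPM per kb came next. The enzymes closed the order with 0.211 ± 0.0548 CPM per kb for Hsd11b1 and 0.0782 ± 0.0354 for Hsd11b2. Over all 8 libraries the neighbours Sgk1 and Fkbp5, Nr3c2 and Zbtb16, and Hsd11b1 and Hsd11b2 overlapped, and the other neighbours did not. In Flox, Tsc22d3 was still the highest, at 22.3 ± 0.799 CPM per kb.

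The wider pathway was described with 104 further genes in 8 lists, of which 91 were tested. Of these, 0 passed the FDR of 0.05 in either direction, against 0.526% of all genes, and 11 had an unadjusted p under 0.05, beside 1622 of all 15388. Estimates were lower in 35 and higher in 56, with a median log2 fold change of 0.02. No gene of the 91 had an estimate at or below that of Tsc22d3. Tsc22d3 was chosen for its lower level, and the share of all genes at or below it is not given. That count is therefore a description only.

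The list of other glucocorticoid-induced genes held 28 genes, 24 of them tested. None passed, 19 estimates were above 0 and 5 below, and the median was 0.05, beside -0.0012 over all genes tested. The share of all genes above 0 is not given. In edgeR's quasi-likelihood test 4 had an unadjusted p under 0.05, beside 1622 of all 15388 genes. Of the 4, Hif3a was lower and the rest were higher. The largest were Cebpd, a bZIP factor, at 0.33 (FDR = 0.338), and Angptl4, an inhibitor of lipoprotein lipase, at 0.25 (FDR = 0.306). The intervals of 20 lay above the Tsc22d3 estimate and those of 4 held it, which is a description and not a test. Summed over the list, levels were 1280 to 1304 CPM in WT and 1317 to 1357 CPM in Flox, a difference opposite in direction to that of Tsc22d3.

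None of the genes that hold or serve the receptor passed the test, beside 0.526% of all genes tested. At that share, 0 in lists this short says little about them. For the 12 receptor chaperones, all tested, the median was 0.01 and 0 passed, with Dnajb1 and Stub1, a Hsp40 protein and a ubiquitin ligase, both at 0.08 (FDR = 0.573 and 0.441). For the 11 coregulators, all tested, the median was -0.0066 and 0 passed. The corepressor Nrip1 was at -0.07 (FDR = 0.775).

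Of 10 genes of steroid supply, 5 were below the filter and 5 were tested, of which 0 passed, and the median was -0.02. The drug and steroid exporters Abcb1b, at 0.12 (FDR = 0.919), and Abcb1a, at -0.04 (FDR = 0.967), had the largest estimates. Cyp11b1, which makes corticosterone in the adrenal gland, was at 0 counts in all 8 libraries, where 3 counts would be the limit that a count of 0 allows per library. Of 12 genes in the list of Sgk1 relatives and mineralocorticoid effectors, 8 were tested and 0 passed, with a median of -0.03. Sgk3, a related kinase, at -0.07 (FDR = 0.773), and Atp1b1, a sodium pump subunit, at -0.06 (FDR = 0.544), had the largest estimates. Scnn1g and Kcnj1, channels of the kidney tubule, were at 0 in all libraries.

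None of the 3 paralogues of Tsc22d3 passed the test, beside 0.526% of all genes tested. Tsc22d1 averaged 245 ± 1.61 CPM over the WT and 236 ± 5.51 CPM over the Flox libraries (log2 fold change -0.06, FDR = 0.534). Tsc22d2 stood at 0.03 (FDR = 0.875) and Tsc22d4 at 0.06 (FDR = 0.595) on the log2 scale. For the 15 clock genes, all tested, the median was 0.02 and 0 passed, with the clock outputs Ciart at 0.23 (FDR = 0.735) and Dbp at 0.19 (FDR = 0.629).

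FOXO factors raise Tsc22d3 in lymphocytes, and they and their targets were therefore listed. Of 13 tested, 0 passed, 5 had an unadjusted p under 0.05, and the median was 0.02. The ubiquitin ligase Fbxo32 averaged 47.8 ± 3.52 CPM over the WT and 40.7 ± 2.30 CPM over the Flox libraries (SD, n = 4 each), a log2 fold change of -0.24 (FDR = 0.0892), the lowest of the 91 tested genes of these 8 lists. The transcriptional coregulator Cited2 went the other way, at 0.20 (FDR = 0.062).

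**Figure D3:**
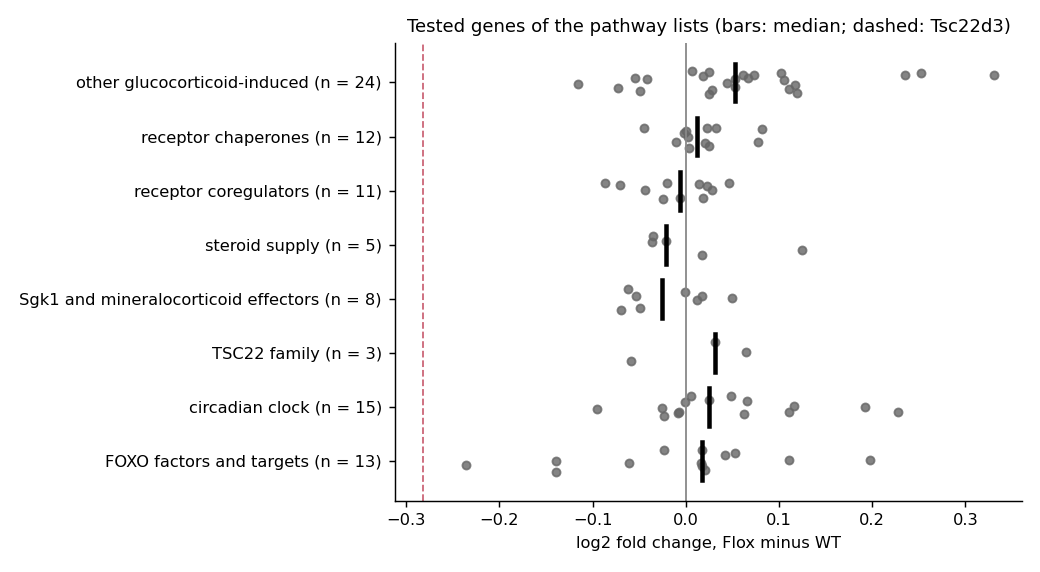
Log2 fold change of Flox against WT for each of the 91 tested genes of the 8 lists (points), with the median of each list (bar), 0 (solid line) and the Tsc22d3 estimate of -0.28 (dashed line). No point reaches the dashed line, which marks a gene chosen for its lower level, and the medians lie between -0.03 and 0.05.

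Fewer cells of a type and less RNA per cell cannot be told apart in these bulk libraries. Beside the lower Tsc22d3, 8 of 10 endothelial markers had estimates below 0, with a median of -0.07 and 0 that passed. In edgeR's quasi-likelihood test 6 had an unadjusted p under 0.05, beside 1622 of all 15388 genes. Of the 6, Emcn was higher, at 0.18 (FDR = 0.358), and the rest were lower. The markers summed to 1385 to 1426 CPM in WT and 1295 to 1397 CPM in Flox. Kdr, the main VEGF receptor, was at -0.17 (FDR = 0.0693), and Cdh5, the cadherin whose promoter drives the Cre, at 0.01 (FDR = 0.967). Immediate early genes summed to 173 to 188 CPM in WT and 193 to 205 CPM in Flox, without overlap, a sum of which Jun (log2 fold change 0.16, FDR = 0.154) was the largest part. Fos, at -0.37 (FDR = 0.467), and Fosb, at -0.16 (FDR = 0.915), had estimates of the other sign. Lymphocytes express Tsc22d3 strongly. Here 0 of 6 lymphocyte markers reached the filter, Cd3e and Cd3d were at 0 in all libraries, and the sum was at most 0.740 CPM. Macrophage markers summed to 77.7 to 109.7 CPM in WT and 87.9 to 123.9 CPM in Flox. Smooth muscle and pericyte markers summed to 1534 to 1620 CPM in WT and 1604 to 1701 CPM in Flox. Even so, 4 of the 5 had estimates below 0, and the median of the list was -0.15. Acta2 made up most of the sum, with means of 1308 CPM in WT and 1423 CPM in Flox. It alone had an estimate above 0, at 0.12 (FDR = 0.184). Of 7 fibroblast markers, 6 had estimates below 0 (median -0.08), and of 4 epicardial markers 0 did (median 0.12), with 0 that passed in either list. Y-linked genes summed to 114.9, 69.3, 121.9 and 171.2 CPM across the WT libraries and to 68.3, 42.9, 58.5 and 119.9 CPM across the Flox libraries. Xist was at 133.6, 206.1, 139.7 and 0.176 CPM in the same WT libraries and at 327.3, 282.4, 263.0 and 103.0 CPM in the same Flox libraries. Replicate 4 of each group had the highest Tsc22d3, the highest Y-linked sum and the lowest Xist of its group, and without WT replicate 4 the Tsc22d3 estimate was -0.26. In a fit with Y-linked expression as a term, the Tsc22d3 estimate was -0.24. Among 514 other X-linked genes the median log2 fold change was 0.0024, with 0 called higher and 2 called lower. The part of these levels in the Tsc22d3 value was otherwise not tested.

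Likeness to Tsc22d3 from library to library was measured within groups. Over the 8 libraries, the deviations of log2 CPM from the group mean had Pearson r with those of Tsc22d3 of 0.42 for Klf9, 0.16 for Sgk1, 0.0072 for Nr3c2 and 0.0013 for Nr3c1. Per1 was at -0.10, Hsd11b1 at -0.15, Zbtb16 at -0.52 and Fkbp5 at -0.56. Of 12856 genes ranked, Wdr48 and Zdhhc9, both at 0.97, and Adamts19, at 0.96, were the most alike. These 3 are the top of a long ranking over few libraries, and are given as a description.

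**Figure D4:**
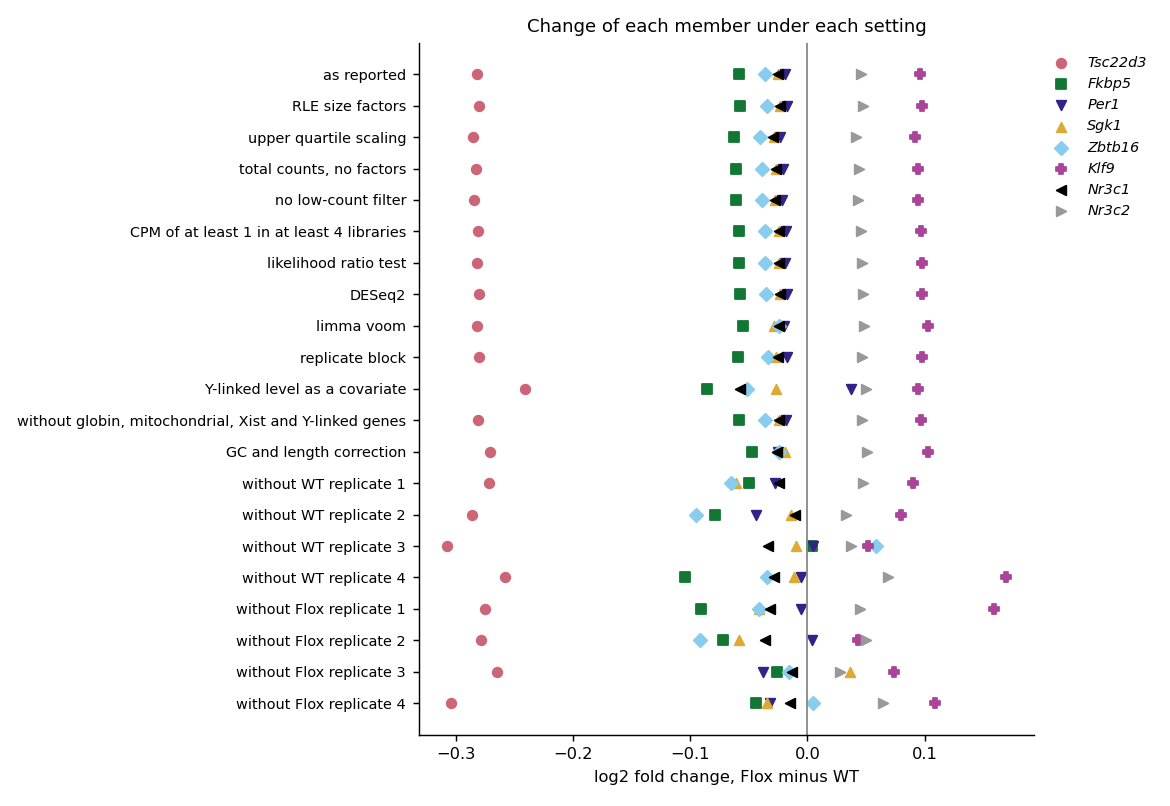
Log2 fold change of Flox against WT for Tsc22d3 and 7 other genes (symbols) under each way of fitting, with the reported fit at the top and Hsd11b1, at -0.42 to -0.02, left off for scale. Tsc22d3 stays between -0.31 and -0.24, and the other genes stay above it in each fit.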

How the data were processed

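Heart ventricles of embryonic day 15.5 mice were sequenced as 60-base single reads from a strand-specific polyA kit. The authors deposited gene-level expected counts from RSEM 1.3.1 after trimming with cutadapt, on GRCm38 with an Ensembl 91 gene table (submitters' processing notes and the table name); the aligner and strand setting are not given in the sources used here, and 18.1% of values were not whole because shared reads are split. Counts were rounded, filtered with filterByExpr, scaled by TMM and tested with edgeR 4.0.16 (R 4.3.3) by the quasi-likelihood test, two-sided, with Benjamini-Hochberg adjustment (FDR) over 15388 genes. Standard errors and 95% intervals were derived from that fit. Alternatives used DESeq2 1.42.0, limma 3.58.1, other scalings and filters, covariates, and each library left out. Gene positions and exon lengths came from GENCODE M21, which 53360 identifiers matched. The code of the edgeR fit with TMM scaling was tested on simulated counts, and the other code was not. No 2 libraries of the same group agreed within counting noise.

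The 10 genes, the lists and the tests were chosen with earlier results of these data known. Tsc22d3 was selected on its measured difference and got no test. All 10 genes were named, with the 2 largest absolute fold changes and any gene at FDR under 0.05 of each list, the marker genes needed beside them, and the 3 genes most alike to Tsc22d3 in deviations of log2(CPM + 0.5), among genes with a mean log2 CPM of at least 1. Of the genes this rule names, 1 is not reported here.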

Additional observations from a re-analysis of the deposited data

Results flagged for a closer look

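Sgk1 in WT replicate 1 stood apart from its group: it was at 23.45 CPM, against 26.01 to 26.16 CPM in the other 3 WT libraries, a gap of 0.945 of the group's range, above the critical value of Dixon's test for 4 samples. Of 20 groups of 4 libraries examined (10 genes in WT and in Flox), this was the only one past the limit, and chance gives about 1 in 20. Without WT replicate 1, the Sgk1 log2 fold change was -0.06.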

How the results depend on the processing

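Tsc22d3 was lower in Flox under all 20 alternatives, from -0.31 without WT replicate 3 to -0.24 in the fit with Y-linked expression as a term. Of 159 alternative fits of the 8 other genes, 0 passed an FDR of 0.05 (lowest FDR 0.639) and 7 changed sign. Sign changes on leaving out 1 library were in Fkbp5 (range -0.104 to 0.0034), Per1 (-0.044 to 0.0046), Zbtb16 (-0.095 to 0.059) and Sgk1 (-0.061 to 0.037); Per1 was also at 0.037 with the Y-linked covariate. The number of all genes called was 81, and was 338 with no filter, 242 with the likelihood ratio test, 198 with DESeq2, 16 with the Y-linked covariate and 190 at an FDR of 0.1. It ranged from 11 without Flox replicate 3 to 142 without Flox replicate 4; the cause was not tested. The median of the 8 other genes ranged from -0.047 to 0.0040 on leaving out 1 library. With the replicate block, Tsc22d3 was at -0.28, the median of the 8 other genes at -0.03, and 93 genes were called in all; it changed no other call on the 10 genes. Same-numbered libraries correlated at 0.040 to 0.124 in their deviations and differently numbered ones at -0.094 to 0.023. All 4 same-numbered pairs were thus above all 12 differently numbered pairs. What same-numbered libraries share is not given and was not tested. The reported fit took the libraries as unpaired. Depth limits Hsd11b1 and Hsd11b2, at 2 to 28 expected counts.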
